A study of Rattus norvegicus with 6 samples.

Results

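The zona pellucida genes Zp1, Zp2 and Zp3 were followed in RNA of the whole rat ovary, on 6 U34 arrays (Set A, Affymetrix), 2 for each of 3 groups. They were taken as every probe set (a group of short probes read as 1 value) whose platform annotation gave exactly 1 symbol equal to a member. This rule found 3 probe sets for 3 of the 4737 genes named with 1 symbol on the array. By NCBI gene number these are 85271 for Zp1, 81828 for Zp2 and 114639 for Zp3. All 3 passed the filter on dim probe sets, which 6118 of the 8799 probe sets did. The group called P0 held ovaries removed on the day of birth, P4 held ovaries removed at postnatal day 4, and the cultured group held ovaries removed at birth and kept for 7 days on floating filters in medium without serum, supplemented with albumin, transferrin, insulin and ascorbic acid. The labels name no strain, genotype or agent for any group. The series' design text mentions progesterone treatment of cultured ovaries, and no label says whether it applied to either cultured array. Each array carried RNA of about 20 pooled ovaries, described as independent samples, so an array is a pool and not an animal. The array of P0 replicate 1 differed from the rest in its GAPDH control probes, which target a glycolytic enzyme used as a reference, with 1324 at the 3′ end against 2162 to 2775 on the other arrays. Without it, the log2 changes of Zp1, Zp2 and Zp3 between P4 and P0 were 1.62, 2.23 and 1.61, and all 3 kept their calls.

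The zona pellucida is the glycoprotein coat that the growing oocyte secretes around itself. ZP2 and ZP3 pair into repeating filaments, and ZP1 crosslinks the filaments. The coat later governs sperm binding and helps to block fertilization by further sperm. Its genes are transcribed in oocytes under the basic helix-loop-helix factor FIGLA, which acts with E12, a product of Tcf3, at E-box elements. In the rat, oocytes leave their clusters and are enclosed in primordial follicles in the days after birth. The culture system is one in which follicle assembly can proceed outside the animal.

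The zona genes share this known regulator, whose part in these data was not tested. For sequence context, the windows of 250 bases upstream of the annotated start are shown for Zp1 and Zp3. They run 5′ to 3′ on the gene's strand, from RefSeq on build GRCr8. The window of Zp2 was not analysed here. That of Zp1 is chr1:216992149-216992398 and that of Zp3 chr12:26334127-26334376, both on the minus strand. Capitals mark matches to the E-box CANNTG and to TATAA, searched on both strands (CANNTG reads the same on each), with no overlap between the motifs here.
Zp1: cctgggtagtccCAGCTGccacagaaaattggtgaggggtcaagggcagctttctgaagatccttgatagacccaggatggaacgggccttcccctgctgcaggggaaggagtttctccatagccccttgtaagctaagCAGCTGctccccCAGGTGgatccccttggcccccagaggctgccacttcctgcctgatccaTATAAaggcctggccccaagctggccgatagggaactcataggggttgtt
Zp3: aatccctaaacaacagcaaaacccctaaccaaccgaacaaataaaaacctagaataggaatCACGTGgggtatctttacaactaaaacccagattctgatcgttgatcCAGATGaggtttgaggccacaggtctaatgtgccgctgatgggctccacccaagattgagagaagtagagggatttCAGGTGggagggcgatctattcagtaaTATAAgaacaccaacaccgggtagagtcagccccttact

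Both upstream windows held 3 E-box matches and 1 TATAA match. In Zp1 the E-boxes began 238, 111 and 99 bases upstream of the start, and TATAA began 50 bases upstream. In Zp3 they began 189, 142 and 66 bases upstream, and TATAA began 39 bases upstream. The E-box nearest the start was CAGGTG in both genes. Of 33469 RefSeq promoters of this length, 65.5% held at least 1 CANNTG, 11.5% held at least 3, 15.9% held CAGGTG and 24.0% held TATAA. These matches are descriptions of the sequence and not measured binding sites.

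Between birth and day 4, the period of follicle assembly named in the series title, all 3 zona genes rose. Intensities are linear values on the authors' scale, on which the median over all probe sets and arrays was 40.0. Zp2, which encodes a filament subunit, read 282 and 338 at P0, 1782 and 1466 at P4, and 1374 and 1309.9 in cultured ovaries (replicates 1 and 2 in each pair). Both P0 arrays were low, and the lowest P4 and cultured values lay above the higher of them. Zp3, the other filament subunit, read 519.6 and 567 at P0, 1467 and 2082 at P4, and 1327 and 1004 in culture. Its probe set carries the suffix that the manufacturer gives to probes matching more than 1 similar transcript. Zp1, the crosslinking subunit, read 71.0 and 74.0 at P0, 268 and 222 at P4, and 168 and 172 in culture. In each gene the P0 arrays were lowest, the cultured arrays intermediate and the P4 arrays highest, with no overlap between any pair of groups.

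**Figure D1:**
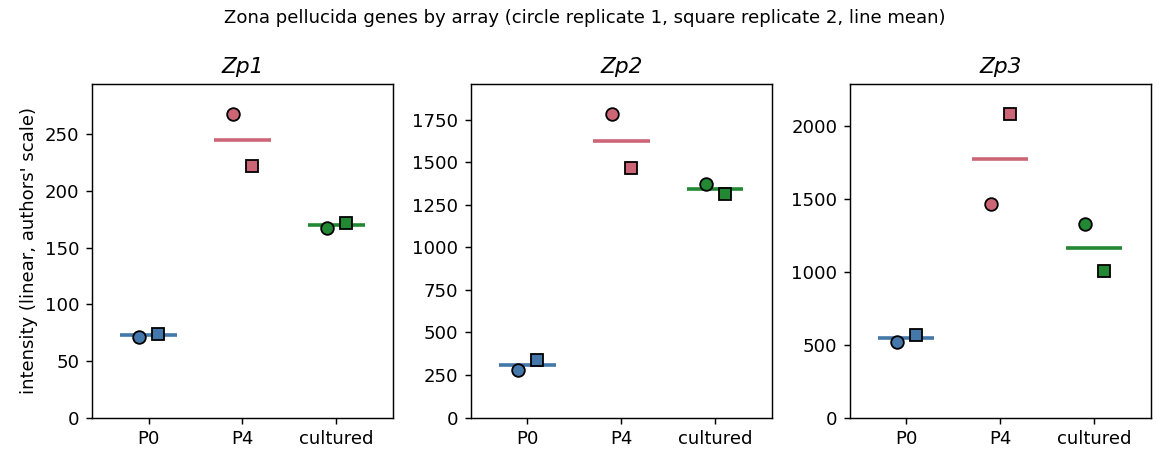
Probe set intensity (linear, authors' scale) of Zp1, Zp2 and Zp3 on each of the 6 arrays, with circles for replicate 1, squares for replicate 2 and a line at the group mean. In every panel both P0 points lie lowest, both cultured points in between and both P4 points highest; for Zp2 these run from 282 at P0 to 1782 at P4.

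Zp2 had the smallest p of all 6118 tested probe sets between P4 and P0 and the ninth largest increase. Its mean was 1624 ± 223 at P4 against 310.4 ± 39.5 at P0 (SD, n = 2), a ratio of 5.23. On the scale of log2(intensity + 7.7) this was a change of 2.36 (SE 0.18, limma adjusted p = 0.00155). Changes on that scale tend to be smaller than the log2 of the ratio of means, and clearly so where values lie near the added 7.7. Zp1 had means of 245 ± 32.2 and 72.5 ± 2.12 (SD, n = 2), a ratio of 3.38 and a log2 change of 1.65 (SE 0.21, limma adjusted p = 0.00827). Zp3 had means of 1775 ± 435 and 543 ± 33.4 (SD, n = 2), a ratio of 3.27 and a log2 change of 1.67 (SE 0.22, limma adjusted p = 0.00827). All 3 members were called higher, in a comparison in which 1.08% of tested probe sets changed, 0.85% were called higher and 18.6% had both P4 arrays above both P0 arrays. Their log2 changes lay above the central 95% of all tested probe sets, which ran from -0.84 to 0.97 around a median of -0.05. With 2 arrays in each group an exact permutation test cannot give a two-sided p below 0.33, so the test rests on limma's spread, estimated over all 6 arrays and moderated across probe sets.

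The rise held within each chip ID batch. Arrays of P0 and P4 with the same replicate number share the last field of their chip ID, batch A for replicate 1 and batch B for replicate 2. The P4 to P0 ratio of Zp2 was 6.31 in batch A and 4.33 in batch B. The ratios of Zp1 were 3.77 and 3.01, and those of Zp3 were 2.82 and 3.67. The batch with the larger ratio was thus A for Zp1 and Zp2 and B for Zp3. In fits to only the 4 P0 and P4 arrays, 314 probe sets changed with the replicate number as a block and 23 without it, against 66 in the fit to all 6, and all 3 members were called in each. The call of Zp1 was lost without P0 replicate 2 (limma adjusted p = 0.0526) or P4 replicate 1 (limma adjusted p = 0.0759), whereas those of Zp2 and Zp3 held without each of the 6 arrays in turn. In RNA of whole ovaries, fewer cells of a type and less RNA per cell cannot be told apart, nor can more oocytes and more RNA per oocyte.

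In ovaries cultured from birth, the zona genes also rose above the level at birth. Zp2 had a mean of 1342 ± 45.2 (SD, n = 2), 4.32 times that at P0, with a log2 change of 2.09 (SE 0.18, limma adjusted p = 0.000239). Zp1 had a mean of 169.7 ± 3.11 (SD, n = 2), a ratio of 2.34 and a log2 change of 1.15 (SE 0.21, limma adjusted p = 0.0145). Zp3 had a mean of 1166 ± 228 (SD, n = 2), a ratio of 2.15 and a log2 change of 1.08 (SE 0.22, limma adjusted p = 0.0216). Of all tested probe sets, 5.43% changed between culture and P0, 3.48% were called higher in culture than at P0, and 21.3% had both cultured arrays above both P0 arrays. The log2 change of Zp2 lay above the central 95% of all tested probe sets (-1.02 to 1.33), and those of Zp1 and Zp3 lay inside it. Among all increases Zp2 ranked 53rd, Zp1 217th and Zp3 239th. This comparison shares its P0 arrays with the one at day 4, so the rises are not independent of each other.

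The calls of Zp1 and Zp3 in culture depended on each array. Leaving out any 1 of the 4 P0 and cultured arrays ended both, with limma adjusted p between 0.0582 and 0.104 for Zp1 and between 0.0601 and 0.167 for Zp3. Without the intensity trend in the variance, Zp3 also lost its call (limma adjusted p = 0.0683). Zp2 kept its call under each of the 15 alternatives tried, at a highest limma adjusted p of 0.011. Each cultured array had a chip ID batch of its own, so culture and batch cannot be told apart.

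**Figure D2:**
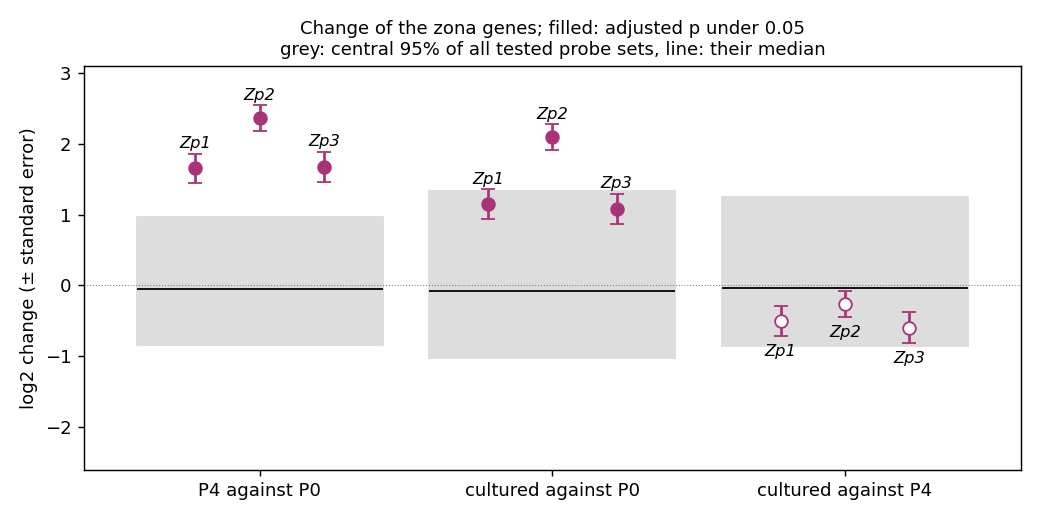
Log2 change of each zona gene in the 3 comparisons, with bars of 1 standard error from the limma fit (2 arrays a group); filled points had an adjusted p under 0.05, the grey bands hold the central 95% of the 6118 tested probe sets and the black lines their medians. All 3 genes lie above the band for P4 against P0, Zp2 alone lies above it for cultured against P0, and no gene passed for cultured against P4.

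Set directly against day 4, cultured ovaries gave lower values for all 3 genes, but none passed the test. The log2 change was -0.51 for Zp1 (95% interval -0.98 to -0.03, limma adjusted p = 0.319). It was -0.27 for Zp2 (95% interval -0.68 to 0.14, limma adjusted p = 0.602) and -0.60 for Zp3 (95% interval -1.08 to -0.11, limma adjusted p = 0.237). As ratios of means, P4 over cultured was 1.45, 1.21 and 1.52. Both cultured arrays lay below both P4 arrays in each gene, which 24.5% of all tested probe sets did, while 2.78% changed and 0.621% were called lower. Without adjustment over all probe sets, Zp1 and Zp3 would pass a threshold of 0.05 in the limma fit and Zp2 would not. That threshold passed 6.39% of all tested probe sets as lower in culture than at P4. The ovaries in culture had also been kept for longer after birth than the P4 ovaries, 7 days against 4, so age and culture are not separated.

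The 3 genes did not keep one proportion across the arrays. The log2 ratio of Zp2 to Zp1, relative to its P0 mean, was -0.10 and 0.10 at P0, 0.72 and 0.70 at P4, and 1.00 and 0.89 in culture. The mean differences from P0 were thus 0.71 at P4 and 0.94 in culture, with no overlap between the arrays of any pair of groups. The log2 ratio of Zp3 to Zp2 differed from its P0 mean by -0.69 at P4 and -1.01 in culture, again clear of the P0 arrays, but the P4 and cultured arrays overlapped. The log2 ratio of Zp3 to Zp1 was -0.36 and 0.40 at P4 and 0.15 and -0.28 in culture, on either side of the P0 values. These changes are described by array and were not tested. A ratio between probe sets shows unequal change and not the proportion of the proteins.

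**Figure D3:**
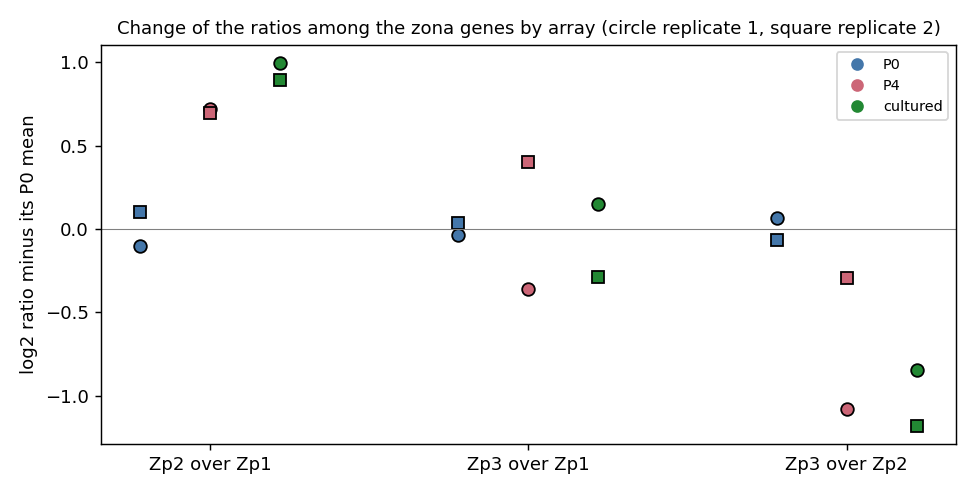
Log2 ratio between zona genes on each array, minus its mean at P0, with circles for replicate 1 and squares for replicate 2. The ratios are differences of log2(intensity + 7.7). The Zp2 to Zp1 ratio is higher on every P4 and cultured array than at P0 (0.70 to 1.00), the Zp3 to Zp2 ratio is lower, and the Zp3 to Zp1 ratio scatters around 0.

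Replicates differed in which gene read higher. At P4, replicate 1 was the higher array for Zp1 and Zp2 and replicate 2 for Zp3, whose higher array read 1.42 times the lower. In culture the higher Zp3 array read 1.32 times the lower, against 1.03 for Zp1 and 1.05 for Zp2. Over the 6 arrays the log2 values of Zp1 and Zp2 correlated at a Pearson r of 0.98, those of Zp1 and Zp3 at 0.93, and those of Zp2 and Zp3 at 0.92. These coefficients describe 6 points in 3 groups, which share the low P0 arrays.

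The list of further oocyte genes gave no call. Of 25 such oocyte and germ cell genes sought, 4 had a probe set, 3 were tested and none was called by limma in any comparison. At an unadjusted p under 0.05, 1 was higher in culture than at P0 and none differed otherwise. Over all tested probe sets that threshold passed 6.51% higher and 6.46% lower at P4 than at P0, 10.2% and 10.5% in culture than at P0, and 7.63% and 6.39% in culture than at P4. Their median log2 change was 0.51 at P4 and 0.12 in culture relative to P0, against -0.05 and -0.08 over all tested probe sets. Ddx4, an RNA helicase of germ cells, read 241 and 159.9 at P0, 194 and 207 at P4, and 139.6 and 172 in culture. Its values overlapped between P0 and both other groups, with log2 changes of 0.03 at P4 (limma adjusted p = 0.982) and -0.33 in culture (limma adjusted p = 0.498). Kit, a receptor for kit ligand found on oocytes, read 72.9 and 79.6 at P0, 84.3 and 147 at P4, and 88.3 and 79.1 in culture. Only its second P4 array stood well above the rest (log2 change 0.51 for P4 against P0, limma adjusted p = 0.481). Gja4, a connexin found in oocyte junctions, read 119 and 138 at P0, 218 and 214 at P4, and 181 and 440.5 in culture. Its P4 and cultured arrays all lay above P0, with log2 changes of 0.72 (limma adjusted p = 0.443) and 1.09 (limma adjusted p = 0.111). Such separation from P0 was seen in 18.6% (P4) and 21.3% (culture) of all tested probe sets. The fourth gene, Mos, the kinase of meiotic arrest, was too dim to be tested and read at most 17.2 on any array. The difference between these genes and the zona genes was not itself tested. In RNA of whole ovaries, the level of these genes within oocytes was not measured.

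The synaptonemal complex genes, which mark meiotic prophase, went the other way. Sycp3 read 300.0 and 185 at P0, 41.7 and 43.0 at P4, and 34.6 and 28.1 in culture, with log2 changes of -2.28 and -2.64 relative to P0 (limma adjusted p = 0.00568 and 0.000587). Sycp1 had log2 changes of -1.80 and -1.85 (limma adjusted p = 0.0281 and 0.00817), and Sycp2 did not pass (log2 changes -0.56 and -0.86, limma adjusted p = 0.521 and 0.162). Thus 2 of 3 tested meiotic genes were lower in each comparison with P0, where 0.229% and 1.95% of all tested probe sets were called lower. None passed between culture and P4, also at an unadjusted p under 0.05. Sycp3 kept both calls without each array. Sycp1 lost that at P4 without any 1 of the 6 arrays (highest limma adjusted p = 0.103), with no filter (0.0712) and from only the 4 arrays compared (0.0653), and that in culture without P0 replicate 1, cultured replicate 1 or cultured replicate 2 (highest limma adjusted p = 0.0597). On every P4 and cultured array, then, the zona genes were above and the synaptonemal genes below their P0 mean. For Sycp2 the P0 arrays read 120.6 and 56.6 and the P4 arrays 51.8 and 56.0. Its second P4 array thus lay close to the lower P0 array.

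**Figure D4:**
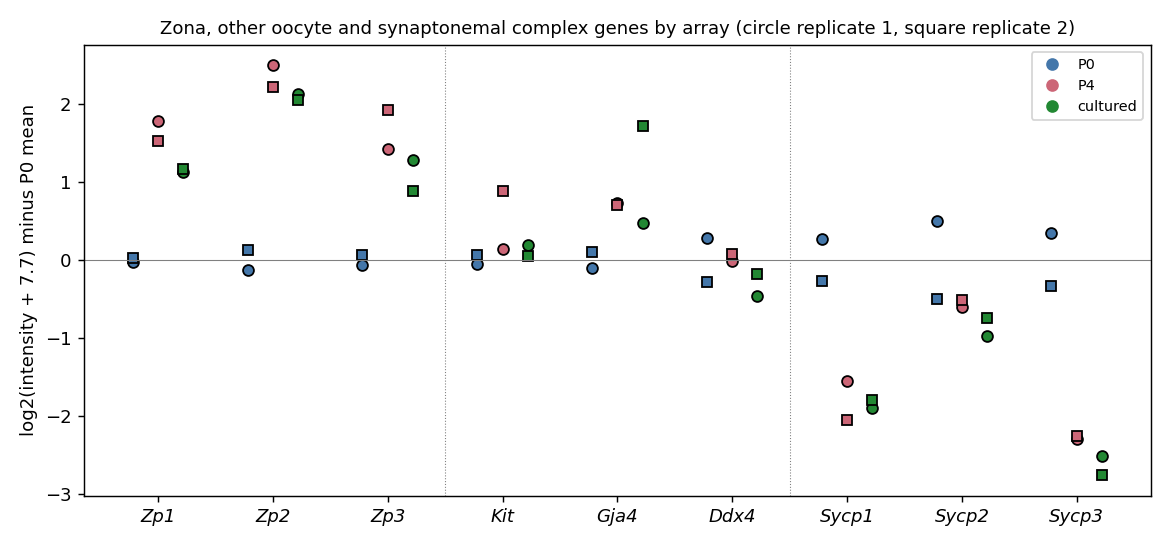
Log2(intensity + 7.7) minus the P0 mean for the 3 zona genes, 3 other oocyte genes and 3 synaptonemal complex genes on each of the 6 arrays (circles replicate 1, squares replicate 2). The zona genes lie 0.88 to 2.50 above the P0 mean at P4 and in culture, Ddx4 lies between -0.47 and 0.07 there, and Sycp3 lies between -2.76 and -2.26.

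No tested gene in the list of zona transcription partners and inhibitors passed in any comparison in the fit to all 6 arrays. Of 8 helix-loop-helix genes sought, 6 were tested with limma. At an unadjusted p under 0.05, 1 was higher at P4 than at P0, 2 were higher and 2 lower in culture than at P0, and 1 was lower in culture than at P4, to be read against the shares over all tested probe sets given above. Their median log2 change was -0.01 at P4 and -0.20 in culture relative to P0. In culture that median pools genes that moved apart. The log2 changes were -0.62 for Tcf3, -0.29 for Tcf4, -0.54 for Tcf12 and -0.11 for Id2, against 0.64 for Id1 and 0.56 for Id3. Figla itself was not analysed here. Tcf3, whose products partner FIGLA, read 151 and 121 at P0, 145 and 174 at P4, and 97.2 and 74.7 in culture. Its log2 changes were 0.22 at P4 (limma adjusted p = 0.775) and -0.62 in culture (limma adjusted p = 0.171). Between culture and P4 its log2 change was -0.84 (limma adjusted p = 0.117), and both cultured arrays lay below both P4 arrays. Tcf3 was thus the 1 gene lower there at an unadjusted p under 0.05. Id1, which encodes an inhibitor of such factors, had log2 changes of 0.79 (limma adjusted p = 0.143) and 0.64 (limma adjusted p = 0.138) relative to P0. With the replicate block on the 4 arrays it passed at P4 (limma adjusted p = 0.0219), the only gene of this list to do so. Its other probe set had log2 changes of -0.02 and -0.20. Id3, another inhibitor, had changes of 0.26 and 0.56 (limma adjusted p = 0.607 and 0.108). These RNAs come from many ovarian cell types, so the level within oocytes is not measured.

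Of the genes that act on zona proteins or in gamete contact, 7 of 13 were tested. By limma none passed between P4 and P0, 1 rose in culture relative to P0 and none passed between culture and P4. Of all tested probe sets, 3.48% were called higher in culture than at P0. At an unadjusted p under 0.05, 1 was higher at P4 than at P0, 1 was higher in culture than at P0, and none differed between culture and P4. That threshold passed 6.51% of all tested probe sets as higher at P4 and 10.2% as higher in culture, relative to P0. The one that rose was Cd9, a tetraspanin needed on the egg for sperm fusion and also present on other cells. It read 319 and 317 at P0, 865 and 536 at P4, and 597 and 769 in culture, with log2 changes of 1.08 at P4 (limma adjusted p = 0.089, or 0.0128 with the replicate block on the 4 arrays) and 1.07 in culture (limma adjusted p = 0.038). All its P4 and cultured arrays lay above P0, which held in 18.6% (P4) and 21.3% (culture) of all tested probe sets. On its other probe set the changes were 0.88 and 0.90 and did not pass (limma adjusted p = 0.132 and 0.0653). The call in culture ended without any 1 of the P0 and cultured arrays (highest limma adjusted p = 0.245), with no filter (0.0586), with quantile normalization (0.0629) and without the intensity trend (0.0866). No other gene of this list passed at P4 with the block. Furin, which encodes a protease able to cleave zona precursors, read 241 and 254 at P0 against 249 to 310 on the other arrays (limma adjusted p = 0.825 at P4 and 0.628 in culture).

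In the list of secretory folding and N-glycosylation genes, 19 of 25 were tested and none was called by limma in any comparison. At an unadjusted p under 0.05, 1 was higher and 1 lower at P4 than at P0, 1 was higher in culture than at P0, and 1 was higher in culture than at P4, in each case a share at or below that over all tested probe sets. Their median log2 change was 0.05 at P4 and -0.04 in culture relative to P0, against -0.05 and -0.08 over all tested probe sets. Rpn2, a subunit of the oligosaccharyltransferase that attaches N-glycans, read 272 and 269 at P0, 546 and 495 at P4, and 483 and 436 in culture. Its P4 and cultured arrays lay above P0, with log2 changes of 0.93 (limma adjusted p = 0.0556, or 0.0127 with the replicate block on the 4 arrays) and 0.75 (limma adjusted p = 0.0508). Such separation from P0 was seen in 18.6% (P4) and 21.3% (culture) of all tested probe sets. Rpn1, another subunit of the same complex, had log2 changes of -0.11 and -0.10 (limma adjusted p = 0.886 and 0.837).

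The 10 probe sets most like the mean profile of the zona genes over the 6 arrays were found among 5024 tested ones with 1 symbol, by Pearson correlation of log2 values. Of these 5024, 104 (2.07%) had an r over 0.9, a share that reflects the few groups. The 10 had an r between 0.98 and 0.99 and stood for 9 genes, led by Rpn2. Alox15, a lipoxygenase, came next. It read 5.1 and 11.2 at P0, 88.7 and 83.2 at P4, and 61.0 and 38.8 in culture, and was called higher than P0 in both (limma adjusted p = 0.00568 and 0.00949). Its other tested probe set had log2 changes of 0.18 and -0.04 and did not pass (limma adjusted p = 0.838 and 0.96), so the pair disagree. Arg2, the mitochondrial arginase, read 58.8 and 51.8 at P0, 198 and 180.5 at P4, and 153 and 159.9 in culture, and was called higher in both (limma adjusted p = 0.00827 and 0.00644). Pllp, plasmolipin of myelin membranes, read 10.9 and 12.9, then 74.5 and 88.2, then 55.7 and 71.9 (limma adjusted p = 0.00568 and 0.00364 relative to P0). Arg2 lost its call at P4 without P0 replicate 2 or P4 replicate 1 (highest limma adjusted p = 0.0759) and in culture without cultured replicate 2 (0.0597). Alox15 lost that in culture without cultured replicate 1 (limma adjusted p = 0.0745). Clpb, a mitochondrial disaggregase, was represented by both of its probe sets. The others were Ldhb, Impa2, Polr1a and Smn1. Of the 10 probe sets, 5 were called higher at P4 and 5 in culture, where 0.85% and 3.48% of all tested ones were. Their choice for a profile low at P0 on these arrays fixes that direction, so the counts only describe them.

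Markers of other ovarian cells moved beside the zona genes between some groups. Of 15 tested granulosa and pregranulosa genes, 3 were higher and none lower at P4 than at P0, 2 were higher and 1 lower in culture than at P0, and 2 were higher and 3 lower in culture than at P4. Over all tested probe sets the shares higher and lower were 0.85% and 0.229%, 3.48% and 1.95%, and 2.16% and 0.621%. With the replicate block on the 4 arrays, 5 were higher and 2 lower at P4. Over all tested probe sets that fit called 314 in either direction, against 66 in the fit to all 6 arrays. The shares given here are those of the fit to all 6 arrays, so they are no background for counts with the block. In the fit to all 6 arrays, the 3 granulosa genes called higher at P4 than at P0 were Inha, Cyp19a1 and Serpine2. Their log2 changes were 2.38, 2.68 and 1.34 (limma adjusted p = 0.00568, 0.00995 and 0.0194). In the same comparison Zp1, Zp2 and Zp3 changed by 1.65, 2.36 and 1.67. Cyp19a1 was dim at P0, with readings of 5.6 and 16.2. Inha, the inhibin alpha subunit, read 238 and 395 at P0, 1970.3 and 1349 at P4, and 361 and 462 in culture. It fell by 1.98 on the log2 scale between P4 and culture (limma adjusted p = 0.00465, or 0.0864 without cultured replicate 1), a comparison in which no zona gene passed. The genes of the list called higher in culture were the keratins Krt8 and Krt18, which epithelial cells also express. Their log2 changes against P4 were 1.48 and 2.57 (limma adjusted p = 0.00456 and 0.00214), and the other Krt18 probe set also passed. Krt19, another keratin of the list, was not called in the fit to all 6 arrays. Its log2 changes against P0 were -1.28 at P4 and -0.95 in culture (limma adjusted p = 0.0523 and 0.0682). Beside Inha, Amh (the anti-Müllerian hormone) and Cyp19a1 were called lower in culture than at P4 (-1.74 and -2.27, limma adjusted p = 0.00407 and 0.008). Fst was the gene called lower in culture than at P0 (-1.64, limma adjusted p = 0.00407). The summed intensity of 17 granulosa probe sets was 3381 and 3772 at P0, 4810.5 and 4144 at P4, and 2694 on both cultured arrays. Of 8 blood and macrophage genes, none passed at P4 (limma; 4 lower at an unadjusted p under 0.05, and 4 lower with the replicate block), and 3 were higher and 2 lower in culture than at P0, against 3.48% and 1.95% of all tested probe sets. Hbb, a beta-globin, read 3738 and 3809.8 at P0 and 44.0 and 23.8 in culture, and Lyz2, a lysozyme of macrophages, read 111 and 141 at P0 and 2267 and 956 in culture. Over 8 such probe sets the sum was 4200.4 and 4439 at P0, 3098 and 2399.5 at P4, and 3328 and 1606 in culture. That sum pools genes that went opposite ways in culture, and Hbb made up most of it at P0. Against P0, the log2 changes in culture were -6.55 for Hbb and -1.58 for Hbe1, the 2 called lower. They were 3.48 for Lyz2, 1.84 for C1qb and 1.65 for Ctss, the 3 called higher. Of 10 stroma and muscle genes, 1 was lower in culture than at P0 and none passed otherwise by limma, with 1 higher and 1 lower at P4 with the block. Their summed intensity ranged from 14120.5 to 16234 at P0, 13227 to 16617 at P4 and 11704 to 12821 in culture. Ddx4, of the oocyte list, read at least 139.6 on each of the 6 arrays. Of the granulosa list, Inha read at least 238 and Amh at least 137, but Cyp19a1 read as little as 5.6 (P0 replicate 1). These are lowest values and do not mean stable levels. Amh read 192 and 214 at P0, 586 and 389 at P4, and 139 and 137 in culture. The part of these cell types in the zona results was not tested.

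Replicate arrays correlated at 0.962 (P0), 0.969 (P4) and 0.965 (cultured) across tested probe sets, and arrays of different groups at 0.913 to 0.956. The array values hold no read depth, and the number of arrays limits the precision.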

How the data were processed

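Total RNA of whole ovaries carried a biotin label and was hybridized following Affymetrix procedures, per the labels' protocols. The deposited table holds linear intensity values, already scaled by the authors: the mean after trimming 2% at each end was 125.2 on each of the 6 arrays. The summary algorithm is not given in the sources used here. No further normalization was applied. From these intensities, log2(value + 7.7) was computed (7.7 is the 20th percentile of all values). The 59 control probe sets and the dimmest 30% of the others (2622) were left out, and 6118 were tested.

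One model with 3 group means was fitted with limma 3.58.1 in R 4.3.3 (trended variances, 3 residual and 6.45 prior degrees of freedom), after tests on simulated data. Tests were two-sided, with calls at 0.05 after Benjamini-Hochberg adjustment across the 6118. Symbols came from the platform annotation and were looked up by gene number in a RefSeq table (6994 of 7018 matched).

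The members, lists and alternatives were chosen with earlier results of these data known. The genes named are the member probe sets, the 10 most alike, every measured oocyte gene and up to 4 genes of smallest p from each of 9 lists, by comparison. Furin, Rpn1, Amh and Krt19 were added after their values were seen. Of 3 tested theca genes, limma called none (2, 1 and 2 at an unadjusted p under 0.05 in the 3 comparisons, and 2 at P4 with the replicate block). The fit with that block called 314 of all tested probe sets at P4, against 66 in the fit to all arrays. List genes stand on their brightest probe set. Krt8 and Krt18 are named as the list's 2 higher genes. The shared chip ID field pairs P0 and P4 arrays of the same number. Their deviations from the group means correlated at 0.33 across probe sets.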

Additional observations from a re-analysis of the deposited data

How the results depend on the processing

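Over 15 alternatives, the 3 zona genes kept a positive log2 change in all 45 values for P4 against P0 and all 45 for cultured against P0, and a negative one in all 45 for cultured against P4. They were called in 43, 36 and 0 of these. In 8 of the 15 alternatives the log2 change equals the reported one by construction, so only 7 could move it. Without each array in turn, the log2 change between P4 and P0 ran from 1.52 to 1.78 for Zp1, 2.22 to 2.50 for Zp2 and 1.42 to 1.92 for Zp3. For cultured against P0 it ran from 1.12 to 1.17 for Zp1, 1.96 to 2.22 for Zp2 and 0.88 to 1.28 for Zp3. For Zp3 in culture, the call also ended without the intensity trend (log2 change 1.08, cause not tested).

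The number of probe sets called between P4 and P0, 66, became 23 with no filter, 29 with no intensity trend, 23 from only the 4 arrays compared, 314 from those 4 with the replicate block and 335 with the chip ID batch as a random block, and 15 to 55 without 1 array (15 without P4 replicate 1, 16 without P0 replicate 2, 23 without either cultured array). Between culture and P0, 332 became 354 from only the 4 arrays compared, 566 from those 4 with the replicate block and 90 to 353 without 1 array (178 and 149 without P0 replicate 1 and 2, 112 and 90 without cultured replicate 1 and 2). The numbers of P0 and cultured arrays share no chip ID batch and their deviations correlated at -0.13; crossing the pairing, chosen after seeing the data, gave 563. Between culture and P4, 170 became 86 to 193 without 1 array (101 without P4 replicate 1, 86 and 95 without cultured replicate 1 and 2). Of the list genes, 5 were called between P4 and P0, against 3 from only the 4 arrays, 20 from those 4 with the replicate block, 18 with the random block and 2 to 8 without 1 array. Between culture and P0, 12 became 13 from only the 4 arrays, 20 from those with the replicate block and 4 to 13 without 1 array. Between culture and P4, 9 became 6 to 11 without 1 array. In the fit to all 6 arrays, 1.08% of all tested probe sets were called between P4 and P0. The shares were 5.43% between culture and P0 and 2.78% between culture and P4. The lists were chosen with earlier results of these data known, so their counts only describe them. The block changed no call of a zona gene. The cause of these moves was not tested, beyond fewer arrays or more probe sets entering the fit.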
